A study of Mus musculus with 6 samples.

Results

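The genes described here are the interferon-linked PARP genes Parp9, Parp10, Parp11, Parp12 and Parp14, the gene for the zinc-finger antiviral protein ZAP (Zc3hav1), the gene for the Parp9 partner Dtx3l, and the DNA-repair genes Parp1 and Parp2, set beside them for comparison. They are 9 of the 55631 genes in an expression table of mouse palatal shelves, found by gene symbol. The members were chosen by family and by known link to interferon, with their FPKM in KO and control libraries already known. Differences between the genotypes in these 9 genes are therefore given as a description, without a p-value. RNA came from palatal shelves at E14.5, around when they normally fuse into the roof of the mouth. KO replicate 2 is the only library read as female, by the low level of the Y-linked gene Ddx3y alone. The 3 KO libraries have the genotype p130Casfl/fl; CAG-Cre, and the 3 control libraries, titled WT, have p130Casfl/fl without a Cre label. Both groups thus carry loxP-flanked alleles of Bcar1, the gene for the adhesion adaptor p130Cas. CAG is a promoter active in most cell types, and an effect of Cre itself cannot be told apart from that of the deletion. The labels do not say whether embryos were littermates or pooled, so the spread between libraries may be technical in part.

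PARP enzymes move ADP-ribose from NAD onto proteins, and some also onto nucleic acids. Parp1 and Parp2 bind broken DNA and build chains of ADP-ribose there, which draw in repair factors. Most of the interferon-linked relatives attach single units instead, and ZAP is a family member without catalytic activity that binds viral RNA. Their transcripts are known to be raised by interferon in many cell types, through transcription factors that include Stat2 and Irf9.

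Values are FPKM, fragment counts scaled to gene length and library size, so levels can be compared between genes. From 21500 to 21869 genes were above 0 per library, and how many reads underlie a given value is unknown. All 12 markers of palatal mesenchyme and all 10 of oral and nasal epithelium were above 0 in every library. Summed over the mesenchymal markers, FPKM ran from 1332 to 1783 in KO and from 1433 to 1727 in control libraries, and over the epithelial markers from 302 to 527 in KO and from 337 to 430 in control libraries. The sums ran from 92.8 to 112 FPKM in KO and from 114 to 130 in control libraries for 6 endothelial markers, where the groups did not overlap, and from 10375 to 26062 in KO and from 11807 to 22454 in control libraries for 5 erythroid markers. Bcar1 stood at 1.69, 1.69 and 1.31 FPKM in KO libraries and at 1.80, 1.97 and 2.09 FPKM in control libraries, with a ratio of means of 0.80. It did not pass the test over all genes (limma, adjusted p = 1.00). Every KO library was below every control library, as in 5.79% of all genes. The deletion is thus taken from the labels and is not shown by these values. In bulk tissue, fewer cells of a type and less RNA per cell cannot be told apart.

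The values of 6 members were higher in every KO library than in any control library: those of Parp9, Dtx3l, Parp10, Parp12, Parp14 and Zc3hav1. Their mean levels in KO shelves were between 2.43 and 3.33 times those in control shelves. Parp11, Parp1 and Parp2 had overlapping groups, with ratios of means between 1.01 and 1.06. As a description of where they fall, and not as a test of them, these 6 members are among the genes called higher at an adjusted p under 0.05 by the limma fit over the 14714 genes averaging 1 FPKM or more, and 0 members are among those called lower. Of all genes tested, 0.326% were called higher and 0.0068% lower, and 3.27% had all KO values above all control values while 5.79% had all of them below. Because the members were picked with this contrast in view, nothing is read from their share against that background. All 9 members passed the filter on low values, Parp10 and Parp14 only through their KO libraries, since their control means were under 1 FPKM.

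**Figure D1:**
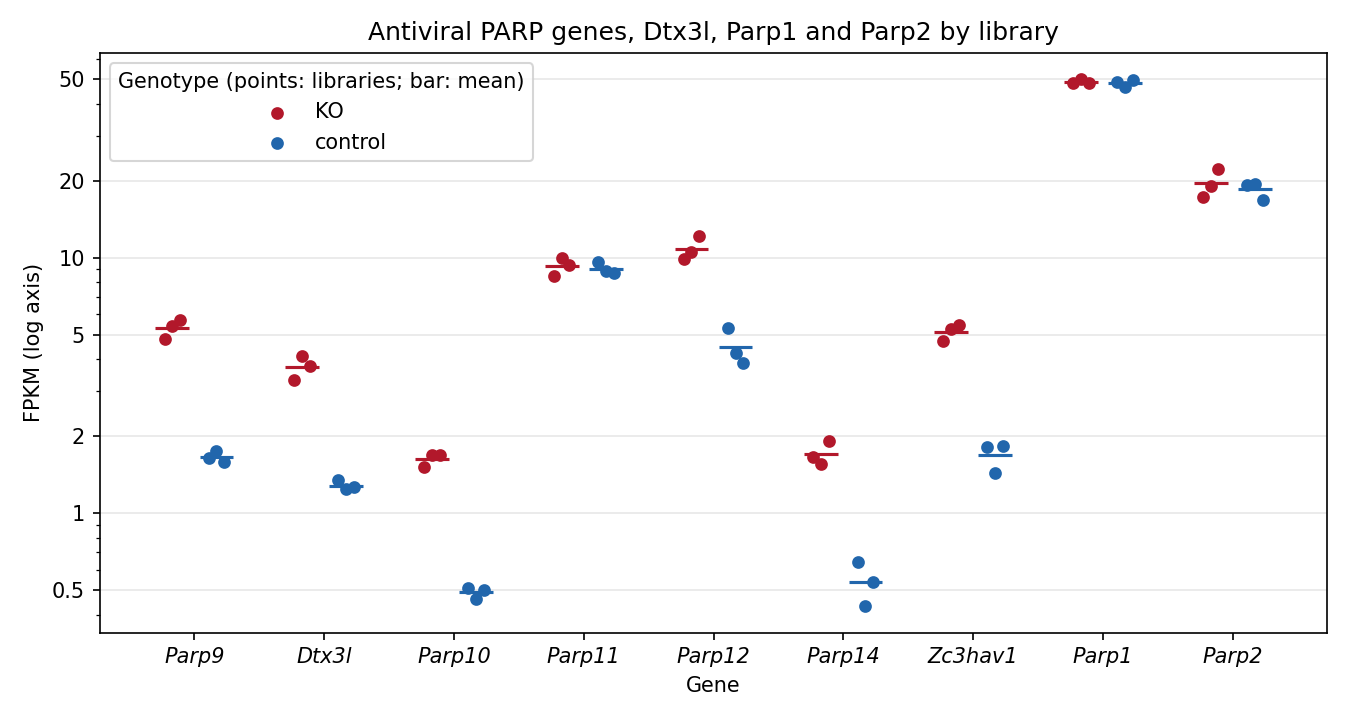
FPKM of each member on a log axis, with KO libraries (red) left of control libraries (blue); points are libraries and bars are means of 3. The groups are apart for Parp9, Dtx3l, Parp10, Parp12, Parp14 and Zc3hav1 and overlap for Parp11, Parp1 and Parp2.

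Parp9 and Dtx3l work as a pair. Dtx3l is a ubiquitin ligase, and Parp9, a protein with macrodomains that bind ADP-ribose, forms a complex with it that acts in DNA damage and antiviral responses. Parp9 (ENSMUSG00000022906) stood at 4.78, 5.39 and 5.68 FPKM in KO libraries and at 1.64, 1.74 and 1.58 FPKM in control libraries. The lowest KO value was well above the highest control value, and the means were 5.28 ± 0.455 FPKM in KO and 1.65 ± 0.0823 FPKM in control libraries (SD, n = 3 each). Its log2 fold change, KO over control on the log2(FPKM + 1) scale, was 1.24 ± 0.09 (SE), and its ratio of means was 3.19. Dtx3l (ENSMUSG00000049502) stood at 3.32, 4.14 and 3.76 FPKM in KO libraries and at 1.34, 1.24 and 1.26 FPKM in control libraries. The control libraries lay close together and the KO libraries lay apart from them, with a log2 fold change of 1.05 ± 0.10 (SE) and a ratio of means of 2.93. The proportion between the pair overlapped between genotypes. Parp9 FPKM divided by Dtx3l FPKM was 1.44, 1.30 and 1.51 in KO libraries and 1.22, 1.41 and 1.25 in control libraries.

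The pair also shares its position. On GRCm38, Dtx3l occupies the minus strand of chromosome 16 from 35926511 to 35939151, and Parp9 the plus strand from 35938470 to 35972605, so the genes start head to head and overlap by 682 bases. Their annotated exons share 458 bases, which is 9.40% of the exonic bases of Parp9 and 8.0% of those of Dtx3l. The strand setting of the counting is not given in the sources used here, and reads from the shared stretch cannot be told apart without it. Parp14 lies on the minus strand from 35832874 to 35871544, with 55.0 kb between it and Dtx3l. Of 7 tested protein-coding genes within 200 kb of this cluster that are not members, 0 were called in either direction by limma, 1 had an unadjusted p under 0.05, and their log2 fold changes ran from -0.20 to 0.25. The nearest on either side, named for their position, were Hspbap1, 4.4 kb from Parp14, and Kpna1, an importin gene 6.14 kb from Parp9. Hspbap1 averaged 2.64 ± 0.0957 FPKM in KO and 2.72 ± 0.252 FPKM in control libraries, and Kpna1 10.5 ± 1.35 FPKM in KO and 9.32 ± 0.430 FPKM in control libraries (SD, n = 3 each).

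**Figure D2:**
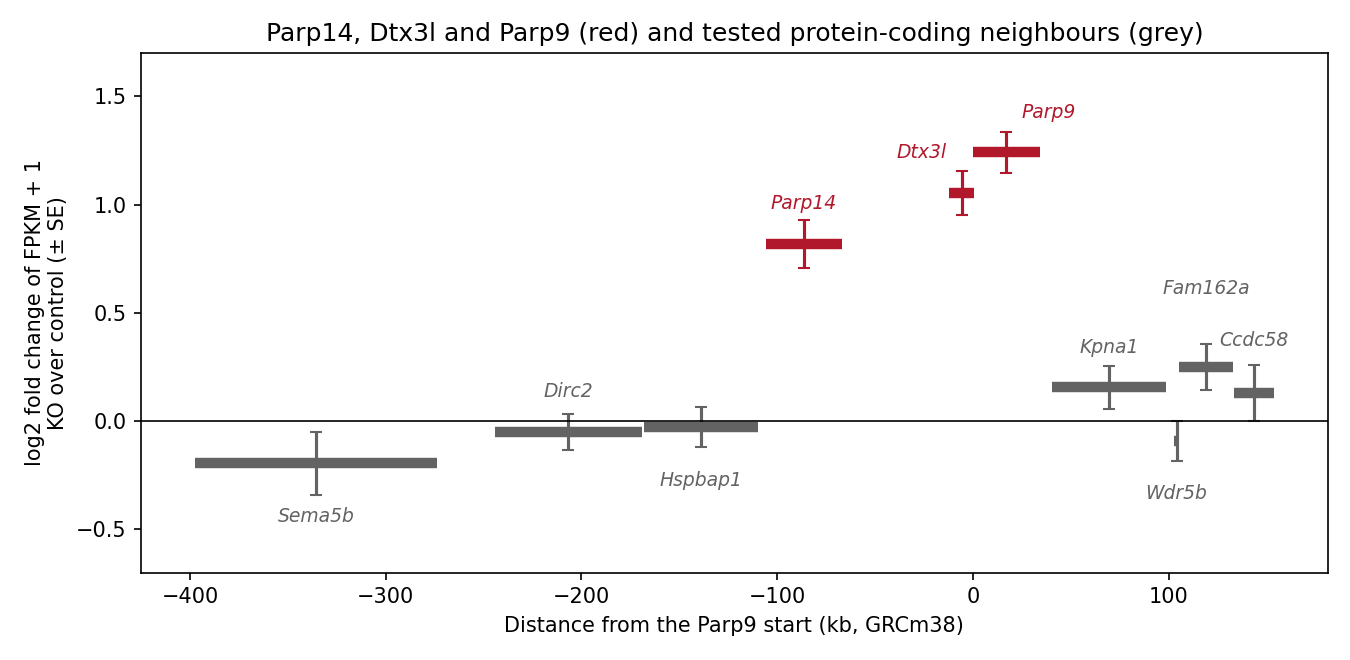
Log2 fold change of FPKM + 1, KO over control, with SE, against distance from the Parp9 start in kb; each bar spans a gene body. Parp14, Dtx3l and Parp9 (red) lie between 0.82 and 1.24, and the 7 neighbours (grey) between -0.20 and 0.25.

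Around all 9 members, 41 tested protein-coding neighbours within 200 kb gave 0 calls in either direction in limma, and 1 was higher and 3 lower at an unadjusted p under 0.05, with a median log2 fold change of -0.04 beside -0.02 for all genes tested. Over all genes, 307 were higher and 283 lower at that level, and 0.326% were called higher and 0.0068% lower. Smpd5 and Gpaa1, both near Parp10, had the smallest p among the neighbours. Smpd5 averaged 1.57 ± 0.113 FPKM in KO and 2.35 ± 0.409 FPKM in control libraries (limma, adjusted p = 0.980), and Gpaa1, a subunit of the enzyme that attaches lipid anchors to proteins, 30.4 ± 0.644 FPKM in KO and 34.2 ± 0.351 FPKM in control libraries (limma, adjusted p = 1.00). Both were lower in every KO library than in any control library. So were 5 of the 15 tested neighbours of Parp10 and 6 of all 41, beside 5.79% of all genes, and all 15 neighbours of Parp10 had a log2 fold change below 0. Parp10 shares 205 exonic bases, 4.8% of its exonic length, with Plec on the same strand, and reads there cannot be told apart.

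Parp10, Parp12, Parp14 and Parp11 attach single ADP-ribose units. Parp12 (ENSMUSG00000038507), a zinc-finger protein of the Golgi and of stress granules that restricts several RNA viruses, is a minus-strand gene at chr6:39086410-39118349. It had the highest level of the 6 called members, at 9.91, 10.5 and 12.1 FPKM in KO libraries and at 5.31, 4.21 and 3.85 FPKM in control libraries. The KO libraries were all above control, and control replicate 1 was the highest control. The log2 fold change was 1.12 ± 0.12 (SE), and the ratio of means, 2.43, was the lowest of the 6 called members. On the log2 scale its difference was the third highest of them, because adding 1 FPKM shrinks the fold change of less abundant genes more.

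Parp14 (ENSMUSG00000034422), a large macrodomain protein first known as a partner of Stat6, stood at 1.65, 1.56 and 1.91 FPKM in KO libraries and at 0.640, 0.431 and 0.536 FPKM in control libraries. Parp10 (ENSMUSG00000063268), a minus-strand gene at chr15:76231174-76243441 whose protein has an RNA-recognition motif, stood at 1.52, 1.69 and 1.68 FPKM in KO libraries and at 0.508, 0.461 and 0.4996 FPKM in control libraries. These are the least abundant members, and for both the groups were apart. Their ratios of means, 3.18 for Parp14 and 3.33 for Parp10, were close to the 3.19 of Parp9, whereas their log2 fold changes were 0.82 ± 0.11 and 0.82 ± 0.10 (SE) on the log2(FPKM + 1) scale. With 0.1 in place of 1 FPKM added, they were 1.51 for Parp14 and 1.55 for Parp10. Both missed the threshold when any 1 library was left out, with log2 fold changes from 0.76 to 0.87 for Parp14 and from 0.80 to 0.85 for Parp10. Parp12 missed it without control replicate 2, at 1.09, or control replicate 3, at 1.04, and 3 of the 9 members were then called, against 4 without any other single library.

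Parp11 (ENSMUSG00000037997), a nuclear envelope protein that in human cells has been tied to control of the interferon receptor, is the interferon-linked member whose groups overlapped. Lying on the plus strand at chr6:127446840-127494261, it stood at 8.51, 10.01 and 9.39 FPKM in KO libraries and at 9.58, 8.84 and 8.69 FPKM in control libraries. The means were 9.30 ± 0.754 FPKM in KO and 9.04 ± 0.475 FPKM in control libraries (SD, n = 3 each). The log2 fold change was 0.04 ± 0.08 (SE) with a 95% interval from -0.15 to 0.23. Of the 7 interferon-linked members it was the most abundant in control shelves, where its range lay above that of Parp12.

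Promoter windows from RefSeq, 250 bases before to 50 after the annotated start on GRCm38.p6, were at hand for 6 members: Parp11 with 2 windows, and Parp12, Zc3hav1, Dtx3l, Parp1 and Parp2 with 1 each. They were searched on both strands for an interferon-type pattern, 2 copies of GAAA 2 bases apart, and for a GAS-type pattern, TTC and GAA 3 bases apart. Of 32851 windows in the mouse table, 3.44% held the interferon-type pattern, 8.30% the GAS-type pattern and 0.454% both. Of the 7 member windows, 1 of Parp11, the interferon-linked member with overlapping groups, held both, and the others held neither. The interferon-type match lay from -44 to -35 and the GAS-type match from -37 to -29 relative to the start, so they overlap. Stretches of this Parp11 window and of those of Parp12 and Dtx3l, both with groups apart, cover different parts of the windows. For Parp11 the stretch is chr6:127446720-127446829 on the plus strand, from -120 to -11 relative to the start. For Parp12 it is chr6:39118350-39118469 on the minus strand, from -120 to -1. For Dtx3l it is chr16:35939207-35939277 on the minus strand, from -250 to -180. The Dtx3l stretch does not reach the positions of the Parp11 matches, and it lies within the Parp9 gene body. The RefSeq start of Dtx3l lies inside the gene body of Dtx3l on GRCm38. Capitals mark the bases of the 2 matches.
Parp11: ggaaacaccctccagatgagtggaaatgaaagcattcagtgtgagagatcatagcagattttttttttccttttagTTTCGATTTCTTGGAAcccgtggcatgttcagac
Parp12: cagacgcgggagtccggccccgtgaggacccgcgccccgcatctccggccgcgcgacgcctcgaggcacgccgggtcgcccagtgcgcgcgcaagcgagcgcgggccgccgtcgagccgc
Dtx3l: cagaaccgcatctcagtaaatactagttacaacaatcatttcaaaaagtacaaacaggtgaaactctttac
A match is a description and not a binding site, and a window without one says only that these letters are absent there. Among the other PARP genes, 7 windows of 7 genes held 1 interferon-type match, in Parp4, and 1 GAS-type match, in Parp16.

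Zc3hav1 (ENSMUSG00000029826), a minus-strand gene at chr6:38305286-38354603, encodes ZAP, which binds CpG-rich viral RNA and brings in partners that degrade it or block its translation. It stood at 4.71, 5.24 and 5.45 FPKM in KO libraries and at 1.81, 1.44 and 1.83 FPKM in control libraries. The groups were apart, with a log2 fold change of 1.19 ± 0.10 (SE) and a ratio of means of 3.03. Among 16 genes of ZAP cofactors and RNA decay, Trim25, the ubiquitin ligase that ZAP needs for its antiviral activity, was the 1 called higher, and 0 were called lower. Of all genes tested, 0.326% were called higher and 0.0068% lower. This list was chosen with earlier results known and is not independent evidence. Trim25 stood at 11.1, 11.6 and 12.6 FPKM in KO libraries and at 5.03, 4.38 and 4.20 FPKM in control libraries, and its log2 fold change reached 1.21 ± 0.09 (SE). The adjusted p in limma was 0.00141, and from 2.92e-04 to 0.0143 over the alternatives. The other 15 did not pass, and the median over the list was -0.02, as over all genes tested. Khnyn, the nuclease that works with ZAP on CpG-rich RNA, averaged 15.0 ± 0.362 FPKM in KO and 15.2 ± 0.594 FPKM in control libraries (SD, n = 3 each).

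The DNA-repair members had overlapping groups. Parp1 (ENSMUSG00000026496), a plus-strand gene at chr1:180568924-180601254, was the most abundant member. It stood at 48.2, 49.97 and 48.4 FPKM in KO libraries and at 48.9, 46.7 and 49.8 FPKM in control libraries, with overlap and a 95% interval of the log2 fold change from -0.12 to 0.14. Parp2 (ENSMUSG00000036023), a plus-strand gene at chr14:50807841-50821301, stood at 17.3, 19.1 and 22.3 FPKM in KO libraries and at 19.2, 19.4 and 16.9 FPKM in control libraries. These groups overlapped too, with a wider interval from -0.16 to 0.31. Of 14 partners of Parp1 and Parp2 in DNA repair, 0 passed in either direction in limma, 0 had an unadjusted p under 0.05, and the median log2 fold change was -0.03. Of all genes tested, 0.326% were called higher and 0.0068% lower. The 2 with the smallest p were Aplf, a repair factor that binds ADP-ribose chains, at 4.21 ± 0.253 FPKM in KO and 4.92 ± 0.293 FPKM in control libraries, and Chd1l, a chromatin remodeller recruited by those chains, at 6.06 ± 0.0953 FPKM in KO and 6.76 ± 0.456 FPKM in control libraries (SD, n = 3 each). In 3 of the 14, Aplf, Chd1l and Xrcc1, every KO library was below every control library, as in 5.79% of all genes. Xrcc1, the scaffold of single-strand break repair, averaged 47.2 ± 1.85 FPKM in KO and 49.9 ± 1.25 FPKM in control libraries (SD, n = 3 each).

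Ordered by mean FPKM in KO shelves, the members ran Parp1, Parp2, Parp12, Parp11, Parp9, Zc3hav1, Dtx3l, Parp14 and Parp10. Neighbours in that order with overlapping ranges were Parp12 and Parp11, Parp9 and Zc3hav1, and Parp14 and Parp10. In control shelves the order was Parp1, Parp2, Parp11, Parp12, Zc3hav1, Parp9, Dtx3l, Parp14 and Parp10. There Zc3hav1 overlapped Parp9 and Parp14 overlapped Parp10, while Parp11 and Parp12 were apart. The 16 PARP family genes with Zc3hav1 among them summed to 199 ± 9.05 FPKM in KO and 178 ± 7.96 FPKM in control libraries. The 5 called PARP family members made up 12.4% ± 0.695 of that sum in KO and 4.95% ± 0.2996 in control libraries, and Parp1 alone 24.7% ± 1.43 in KO and 27.3% ± 1.40 in control libraries (SD, n = 3 each). Those 5 were picked because they were called higher in these same libraries, so their larger share in KO follows from that choice. Parp1 itself averaged 48.9 FPKM in KO and 48.5 FPKM in control libraries, so its lower share reflects the larger sum.

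Of the 8 other PARP genes, 0 passed in either direction in limma, where 0.326% of all genes were called higher and 0.0068% lower. At an unadjusted p under 0.05, 1 was higher and 0 lower. Their log2 fold changes ran from -0.09 to 0.43 with a median of 0.01. Parp3, a DNA-repair enzyme, had the smallest p. It stood at 4.28, 5.20 and 6.15 FPKM in KO libraries and at 3.32, 3.94 and 3.52 FPKM in control libraries, without overlap but short of the threshold (limma, adjusted p = 0.858). Parp4, the PARP of vault particles, averaged 1.46 ± 0.217 FPKM in KO and 1.14 ± 0.121 FPKM in control libraries (SD, n = 3 each), with overlap.

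**Figure D3:**
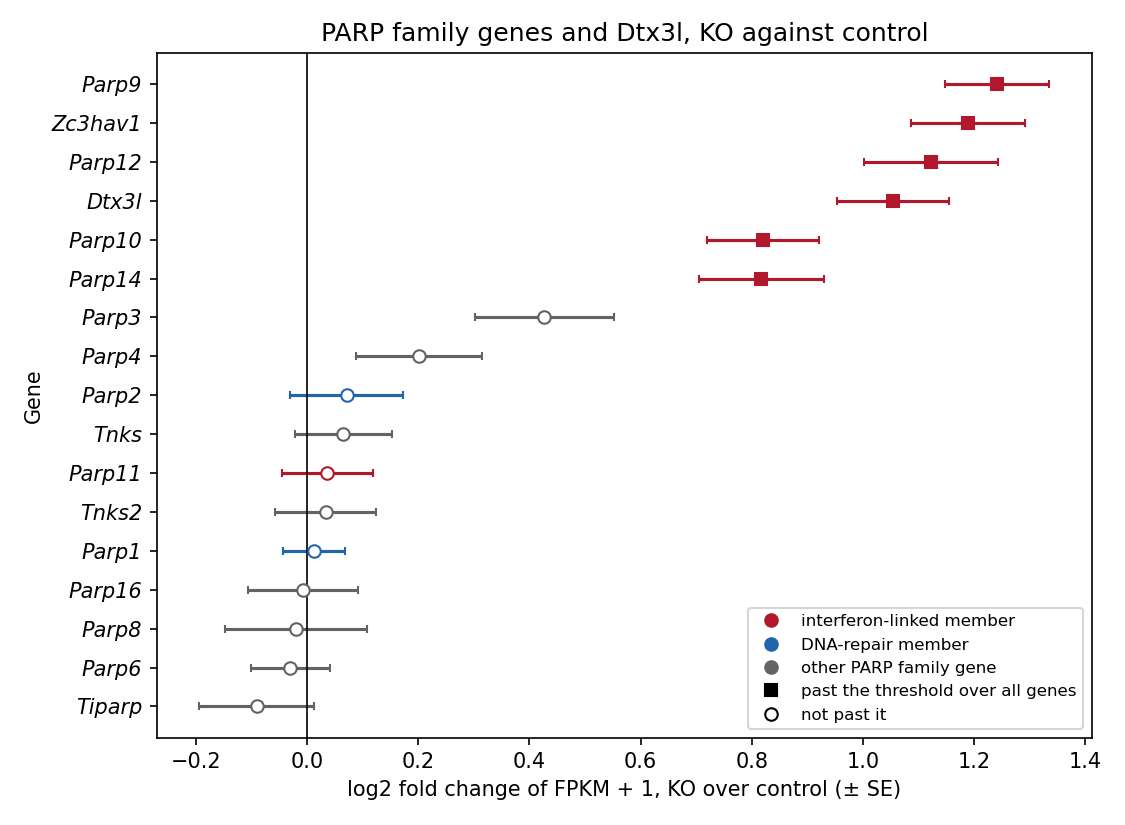
Log2 fold change of FPKM + 1, KO over control, with SE bars, for the interferon-linked members (red), the DNA-repair members (blue) and the other PARP genes (grey); filled squares passed the threshold over all genes and open circles did not. The 6 squares lie between 0.82 and 1.24, and the grey circles between -0.09 and 0.43.

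Genes for enzymes and proteins around ADP-ribose gave no calls in limma. Of all genes tested, 0.326% were called higher and 0.0068% lower, so 0 calls in lists this short says little. Among hydrolases that remove ADP-ribose and proteins that bind it, 0 of 10 tested genes passed, and 0 had an unadjusted p under 0.05, with a median log2 fold change of -0.03. The smallest p were those of Adprh, a hydrolase, at 27.3 ± 0.844 FPKM in KO and 29.6 ± 2.31 FPKM in control libraries, and of the macrodomain gene Gdap2, at 4.70 ± 0.360 FPKM in KO and 5.21 ± 0.311 FPKM in control libraries (SD, n = 3 each). Of 12 tested genes of NAD supply and use, 0 passed and 2 had an unadjusted p under 0.05, with a median of 0.00. At that level, 307 of all 14714 genes tested were higher and 283 lower. Nampt, which makes the NAD precursor from nicotinamide, averaged 7.13 ± 0.606 FPKM in KO and 5.86 ± 0.369 FPKM in control libraries, and Naprt, which does so from nicotinic acid, 4.14 ± 0.384 FPKM in KO and 5.35 ± 0.591 FPKM in control libraries. Those 2 genes had groups apart, in opposite directions, and neither passed (limma, adjusted p = 1.00). Of all genes, 3.27% had all KO values above all control values and 5.79% had all of them below. Of the 4 Deltex genes related to Dtx3l, 0 passed and 0 had an unadjusted p under 0.05, with a median of -0.03. Dtx3 averaged 102 ± 6.89 FPKM in KO and 105 ± 2.32 FPKM in control libraries, and Dtx2 9.38 ± 0.694 FPKM in KO and 9.70 ± 0.741 FPKM in control libraries (SD, n = 3 each).

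Of 4 transcription factors of the interferon response, 2 were called higher in KO shelves by limma, Irf9 among them, and 0 were called lower. This list was chosen with their values known and is not independent evidence of the direction. Irf9, the DNA-binding partner of Stat2, stood at 14.1, 16.8 and 17.4 FPKM in KO libraries and at 8.94, 7.07 and 7.58 FPKM in control libraries (limma, adjusted p = 0.0124). Without KO replicate 3, control replicate 2 or control replicate 3 its limma adjusted p was 0.0599, 0.0707 or 0.104, in that order. Stat2 averaged 8.38 ± 1.40 FPKM in KO and 6.21 ± 0.257 FPKM in control libraries (limma, adjusted p = 0.970), and Irf1, a factor that answers interferon-gamma, 5.38 ± 0.498 FPKM in KO and 4.27 ± 0.434 FPKM in control libraries (limma, adjusted p = 1.00). All 4 had every KO library above every control library, as had 3.27% of all genes, and 0.326% of all genes were called higher. Their median log2 fold change was 0.66, beside -0.02 over all genes tested.

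Among KO libraries, replicate 1 tended to have the lowest values of the called members. Averaged over the 6 of them, the difference from the control mean on the log2(FPKM + 1) scale was 0.95, 1.06 and 1.12 in KO replicates 1, 2 and 3, and 0.07, -0.05 and -0.02 in control replicates 1, 2 and 3. KO replicate 1 had the lowest KO value for 5 of the 6 members, and KO replicate 3 the highest for 4. Leukocyte markers also leaned higher in KO than in control libraries, without passing the test. All 14 tested markers had a log2 fold change above 0, with a median of 0.43. In limma 0 passed the threshold and 11 had an unadjusted p under 0.05. Among the 14, 11 had all KO above all control values beside 3.27% of all genes. Summed over the list, FPKM ran from 129 to 178 in KO and from 93.2 to 116 in control libraries. Lyz2, the lysozyme of macrophages, averaged 15.6 ± 2.51 FPKM in KO and 8.73 ± 1.35 FPKM in control libraries (limma, adjusted p = 0.152), and Adgre1, an adhesion receptor that marks macrophages, 3.45 ± 0.412 FPKM in KO and 1.77 ± 0.360 FPKM in control libraries (limma, adjusted p = 0.1598). Cd3e and Ncr1, which define T cells and natural killer cells, were at 0 in every library. The median marker difference from the control mean was 0.39, 0.68 and 0.27 in KO replicates 1, 2 and 3, and -0.12, -0.05 and 0.15 in control replicates 1, 2 and 3. The member mean and the marker median were both higher in KO replicate 2 than in KO replicate 1. KO replicate 3 had the highest member mean and the lowest marker median of the KO libraries. Whether leukocytes have a part in the members' difference was not tested.

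**Figure D4:**
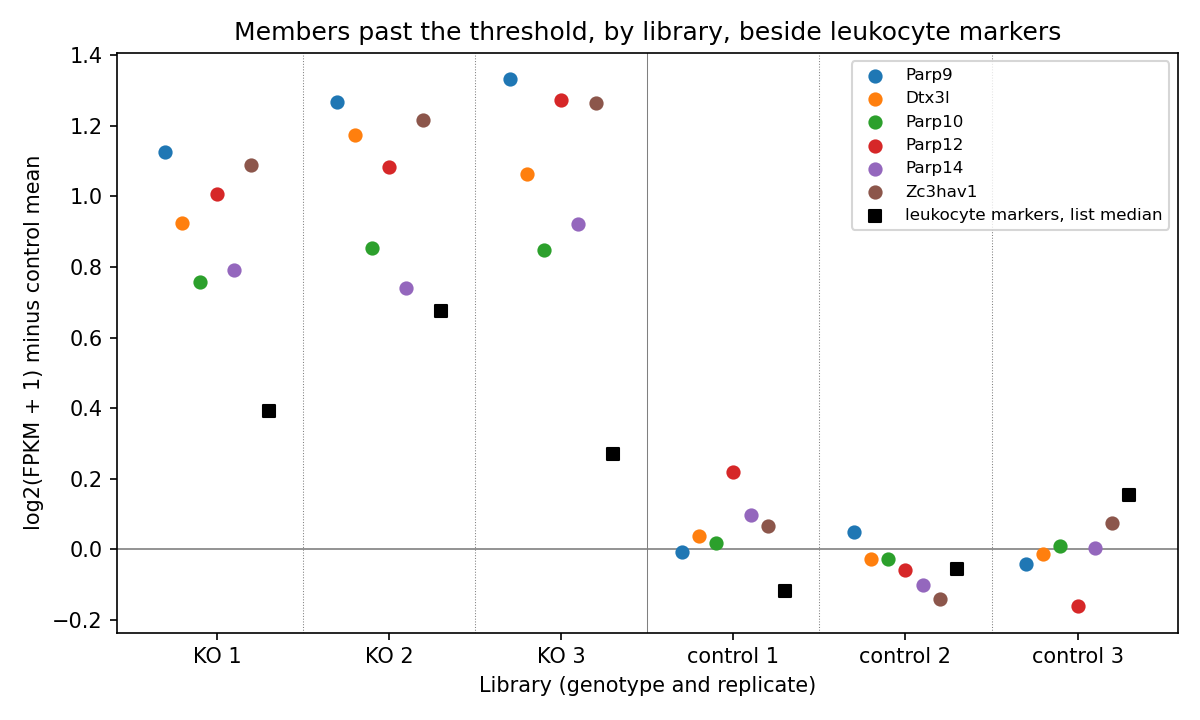
Difference of log2(FPKM + 1) from the control mean for each of the 6 called members (coloured points) in each library, with the median over leukocyte markers (black squares), KO libraries left of control libraries. The mean of the 6 members is 0.95, 1.06 and 1.12 in the KO libraries and between -0.05 and 0.07 in the control libraries, while the squares lie at 0.39, 0.68 and 0.27 in KO and between -0.12 and 0.15 in control libraries.

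The 6 genes outside the set with a profile closest to the mean profile of its 7 interferon-linked members were Trim30a, Ifi35, Irf9, Lgals9, Ccl12 and Ddx58. Those 7 include Parp11, whose groups overlapped. Their mean profile in KO replicates 1, 2 and 3 was 0.80, 0.92 and 0.96, below that of the called members alone. Likeness was the root-mean-square difference over the 6 libraries in log2(FPKM + 1) deviations from the control mean, and ran from 0.0334 for Trim30a to 0.122 for Ddx58. Trim30a averaged 1.78 ± 0.214 FPKM in KO and 0.456 ± 0.0858 FPKM in control libraries, and Ifi35 7.01 ± 0.762 FPKM in KO and 3.23 ± 0.328 FPKM in control libraries (SD, n = 3 each). Ddx58, which encodes the viral RNA sensor RIG-I, averaged 7.46 ± 0.444 FPKM in KO and 3.17 ± 0.148 FPKM in control libraries. Lgals9, a galectin gene, averaged 21.0 ± 0.727 FPKM in KO and 9.92 ± 0.390 FPKM in control libraries, and Ccl12, a chemokine gene, 2.03 ± 0.401 FPKM in KO and 0.757 ± 0.0795 FPKM in control libraries. Trim30a and Ccl12 passed the filter only through their KO libraries, since their control means were under 1 FPKM. Ccl12 was the only 1 of the 6 not called higher by limma, and in all 6 genes each KO library was above each control library. The way they were chosen favours both.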

How the data were processed

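RNA-seq of palatal shelves from 3 KO and 3 control mouse embryos was used. The deposited table holds FPKM per gene, computed by the authors. The genome build mm10 and DESeq2 1.5.2 are named in the submitters' processing notes; no source used here names the aligner, the annotation or the strand setting. Depth is unknown, so no counting interval is given. Of 55631 gene IDs, 50876 matched a name in GENCODE M21, which also gave positions on GRCm38. From the FPKM, log2(FPKM + 1) was computed, and the 14714 genes averaging 1 FPKM or more were fitted with limma 3.58.1 in R 4.3.3 (KO over control, moderated variance with a trend on the mean). Tests were two-sided, with Benjamini-Hochberg adjustment over all genes tested and a threshold of 0.05. The p-values reflect only how much these 6 libraries vary. The script was tested on simulated data.

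The members and lists were chosen with earlier results of these data known. The text names all members, each listed gene past the threshold (1 is not reported here) or, in a list with none, the 2 of smallest p, the 2 neighbours of smallest p, and the 6 closest profiles; Khnyn, Xrcc1, Stat2, Irf1, Hspbap1 and Kpna1 were added after their values were seen. Alternatives covered the added constant, filters, scalings, TPM, variance settings, library weights, embryo sex, a replicate block and leaving out each library. Protein sequences were not used here, so the planned comparison of them was not run.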

Additional observations from a re-analysis of the deposited data

How the results depend on the processing

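Under 17 alternatives, 484 of 529 recomputed log2 fold changes of single genes kept their direction and their side of the threshold, 33 lost a call, 1 gained one and 11 changed sign. Parp9, Dtx3l and Zc3hav1 were called in all 16 alternatives that tested them, Parp12 in 15 of 17, and Parp10 and Parp14 in 8 of 16 each. The 9 members' calls, 6 in all, were 1 with a filter of 5 FPKM, which removes 5 of the members, 4 with sex as a covariate, and 3 to 4 without any 1 library. KO replicate 2 is the only library read as female, so the fit with sex gave the same log2 fold changes as leaving that library out. That of Dtx3l was 0.9943 in both, and they are thus not separate checks. Same-numbered KO and control libraries had correlations of deviations of 0.0192, 0.305 and -0.241. KO replicate 2 correlated best with its own number, and KO replicates 1 and 3 did not. Deviations centred within groups of 3 libraries cannot settle whether replicate numbers pair the libraries. With a replicate block, 4 members and 1 interferon factor were called, and 41 genes were higher and 1 lower. Genes called higher, 48 in all, numbered 24 at 5 FPKM, 67 with no filter, 66 with library weights and 32 to 48 without any 1 library. Genes called lower, 1 in all, numbered 0 at 5 FPKM, 2 with no filter, 2 with sex as a covariate, and 1 to 2 without any 1 library. Interferon factors called, 2 in all, numbered 1 to 2 without any 1 library, and their median log2 fold change was 0.95 at 5 FPKM. Medians near 0 moved: that of hydrolases and readers to -0.0761 with library weights, -0.1083 with sex and -0.1083 to 0.0008 without any 1 library; that of the other PARP genes to 0.0988, 0.1202 and -0.0227 to 0.1202 in the same order; and that of the NAD genes to 0.0466 at 5 FPKM. Over all alternatives, list medians near 0 took either sign: -0.1060 to 0.0286 for the Deltex genes, -0.0838 to 0.0241 for the repair partners, -0.0242 to 0.0111 for the ZAP cofactors and -0.0156 to 0.0466 for the NAD genes; those of the interferon factors (0.5797 to 0.9483) and leukocyte markers (0.3281 to 0.5630) stayed above 0. Uncalled log2 fold changes near 0 changed sign: Parp1 was -0.0036 with sex and -0.0136 to 0.0313 without any 1 library; Parp11 -0.0043 with library weights, -0.0130 with sex and -0.0130 to 0.0927; Parp2 -0.0091 with library weights and -0.0223 to 0.1507; Dtx2 -0.1027 to 0.0112; Dtx3 0.0151 with sex and -0.0810 to 0.0151. Beyond the filters and left-out libraries, which change what is tested, the cause was not tested. Levels under 1 FPKM (Parp10, Parp14, Trim30a and Ccl12 in control libraries) rest on an unknown number of reads.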
